A study of Mus musculus with 15 samples.

Results

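The genes described here are Dbp, Tef, Hlf, Usp2, Coq10b, Wee1, Mir22hg, Tmem82, Slc25a34 and Leo1, a set of 10 genes grouped under the heading of clock output around Dbp and Usp2. They are listed by symbol and were chosen by their measured read counts in these same libraries, as far as can be told by their difference between SJQYD and model glands. All 10 were found among the 32479 genes of the deposited FPKM table and among the 18136 genes that passed the filter on low counts. The tissue was the submandibular gland, which makes saliva and lies beneath the jaw, and its RNA was sequenced in 15 mouse libraries, 5 for each of 3 groups. The SJQYD group held NOD/LTJ mice given SJQYD, an agent whose full name the labels do not spell out. The model group held NOD/LTJ mice with no treatment, a strain prone to autoimmune inflammation of the salivary glands. As controls, the study used ICR mice with no treatment, which are outbred, so a comparison with them cannot tell apart strain and disease. The genotype of all 3 groups was labelled WT, and the labels give no age, dose, duration of treatment or hour of collection. Whether the hour of collection was shared by the groups is therefore unknown, and its part in the differences was not tested.

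The molecular clock is a loop in which CLOCK and BMAL1, the product of Arntl, bind E-box letters in DNA and activate genes, among them Per2, whose product later silences them. The same E-box activation drives Dbp, and Dbp, Tef and Hlf encode the PAR bZip transcription factors, which bind D-box letters and pass the daily rhythm on to genes of metabolism and detoxification. In many mouse tissues Dbp and Per2 are high when Arntl is low, and Usp2 and Wee1 are rhythmic as well.

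SJQYD libraries held 39510018 to 62335235 counts in total, model libraries 52746925 to 68694263 and control libraries 54836440 to 63101584. Some libraries stood apart on the scale of normalised read counts (CPM), which adjusts for library size and for a scaling factor (TMM) of each library. The factors ran from 0.594 in control 1 to 1.85 in SJQYD 1, so a CPM value is not a share of a library's counts. The summed level of 4 transcripts abundant in the adjoining parotid gland (Amy1, Bpifa2, Smr3a and Chia1) was 35098 CPM in SJQYD 1, 132643 CPM in model 3 and 41177 CPM in control 2. Across each group it ran from 7.39 to 35098 CPM in SJQYD, from 206 to 132643 CPM in model and from 87.0 to 41177 CPM in control glands. The X-inactivation transcript Xist was at 1.01 CPM in SJQYD 3 and at no less than 162 CPM in any other library. The 3 acinar markers (Aqp5, Bhlha15 and Mucl2) together held from 84262 to 510349 CPM in SJQYD, from 214478 to 475028 CPM in model and from 417562 to 897658 CPM in control glands. Markers of T and B cells, 4 genes in all, summed to between 12.5 and 61.0 CPM in SJQYD, against a range of 40.3 to 104 CPM in model glands and 5.67 to 76.4 CPM in control glands. Sublingual gland markers (Muc19, Dcpp1 and Dcpp2) had summed levels of 77.4 to 37876 CPM in SJQYD glands (median 21735 CPM), 3070.4 to 30881 CPM in model glands (median 7389 CPM) and 29.2 to 38793 CPM in control glands (median 1307 CPM). The 5 adipocyte markers summed to 169 CPM in SJQYD 5 and 237 CPM in model 2, and to no more than 23.7 CPM in any other library. The 5 duct markers ran from 3267 to 11244 CPM in SJQYD, from 5760 to 9291 CPM in model and from 8223 to 22074 CPM in control glands. Skeletal muscle markers, 5 in all, summed to at most 4.49 CPM in any library. The part of these differences in the results below was not tested beyond leaving the libraries out. In bulk tissue, fewer cells of a type and less RNA per cell cannot be told apart.

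Both clock genes that serve as a yardstick differed widely between SJQYD and untreated glands. Arntl stood at 0.484, 0.824, 1.07, 1.13 and 1.07 CPM in SJQYD 1 to 5, at 12.8, 8.47, 12.9, 4.88 and 20.3 CPM in model 1 to 5, and at 37.2, 15.9, 24.2, 28.1 and 9.59 CPM in control 1 to 5. Every SJQYD library lay below every untreated one, and model and control libraries overlapped. Its log2 fold change was -3.71 ± 0.44 (SE) for SJQYD against model (adjusted p = 0.00055, edgeR quasi-likelihood test with Benjamini-Hochberg adjustment over all tested genes, as for every adjusted p of a gene here). Per2 stood at 50.5, 55.2, 42.7, 26.4 and 41.8 CPM in SJQYD 1 to 5, at 2.67, 3.08, 1.07, 4.22 and 2.16 CPM in model 1 to 5, and at 3.08, 5.80, 2.81, 6.33 and 3.70 CPM in control 1 to 5. The SJQYD libraries again stood apart from all others, here on the high side, with a log2 fold change of 4.04 ± 0.35 for SJQYD against model (adjusted p = 3.4e-05).

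Among the 10 genes, Dbp, Tef, Hlf, Usp2, Coq10b, Wee1 and Mir22hg were higher and Tmem82, Slc25a34 and Leo1 lower in SJQYD than in model glands. Since this contrast appears to have chosen them, their values in it are a description and carry no test. All 10 passed the threshold of an adjusted p under 0.05 there, which 2.75% of all tested genes did (1.91% higher and 0.838% lower), and nothing is read from that count. Nor is anything read from the absence of overlap between the groups in all 10, which 5.5% of tested genes showed. In SJQYD against control glands, which uses the same SJQYD libraries, 6 were called higher and 3 lower, where 11.1% of tested genes were called (5.22% higher and 5.9% lower). In that comparison 9 had no overlap between the groups, as did 10.1% of tested genes. In model against control glands 1 of the 10 was called, lower in model, against 5.07% of tested genes (2.57% higher and 2.5% lower). The model libraries of that last comparison also entered the choice of the genes, so it is not independent of it.

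**Figure D1:**
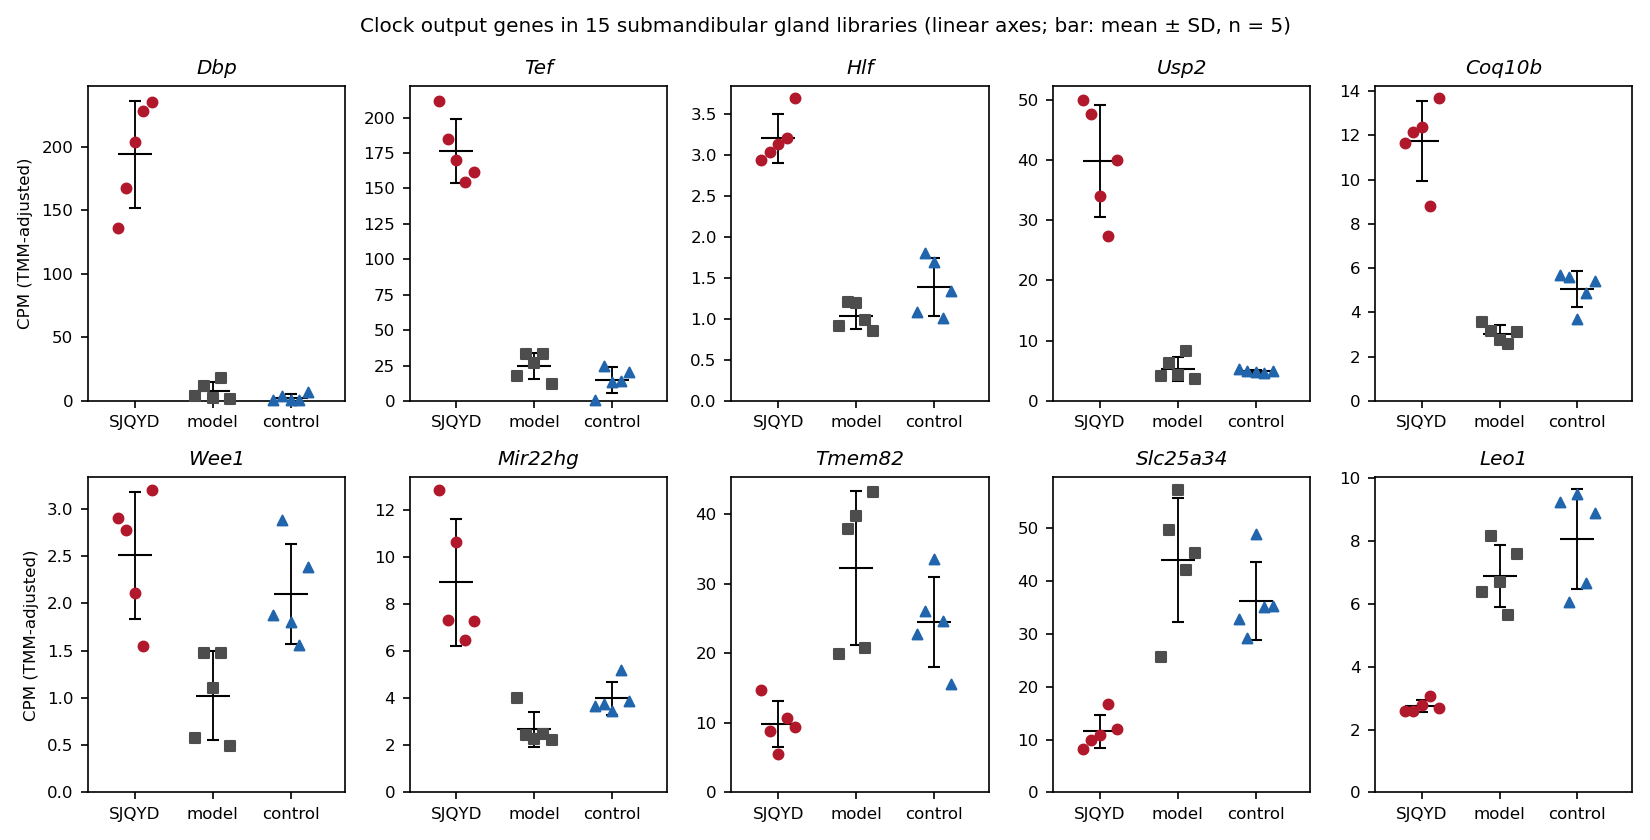
Normalised read counts (CPM, linear axes) of the 10 genes in SJQYD, model and control glands. Points are single libraries, and bars are the mean ± SD of 5. The SJQYD points lie apart from both untreated groups for every gene but Wee1, whose SJQYD points (1.55 to 3.20 CPM) overlap the control points (1.56 to 2.88 CPM).

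Dbp encodes the D-box binding protein that gives the family its lead gene. It stood at 136, 168, 204, 229 and 235 CPM in SJQYD 1 to 5. The model libraries held 3.90, 11.9, 2.56, 18.0 and 1.47 CPM, and the control libraries 0.700, 4.03, 0.985, 0.469 and 6.93 CPM. The lowest SJQYD library exceeded the highest untreated one, model 4, 7.57-fold, the widest such gap among the 10 genes. The untreated groups overlapped, and their values were far more scattered in proportion than those of SJQYD glands, with coefficients of variation of 21.6% in SJQYD, 94.2% in model and 107% in control glands. The log2 fold change of Dbp was 4.68 ± 0.87 for SJQYD against model, or 25.7-fold, and 6.20 ± 0.95 for SJQYD against control. For model against control it was 1.51 ± 0.79, which did not pass the test (adjusted p = 0.289).

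Tef encodes thyrotroph embryonic factor, a second PAR bZip protein. It stood at 212, 185, 170.2, 155 and 161 CPM in SJQYD 1 to 5, at 17.9, 32.9, 26.6, 33.1 and 12.2 CPM in model 1 to 5, and at 0.616, 24.3, 13.4, 14.0 and 20.6 CPM in control 1 to 5. All SJQYD values lay at least 4.68-fold above the highest untreated value, and control 1 lay far below the other control libraries. Fitted log2 fold changes were 2.85 ± 0.61 for SJQYD against model, 3.59 ± 0.63 for SJQYD against control and 0.75 ± 0.58 for model against control (adjusted p = 0.493).

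Hlf, hepatic leukaemia factor, was the least abundant of the family per transcript length in every library but control 1 and control 4. It stood at 2.94, 3.04, 3.14, 3.21 and 3.70 CPM in SJQYD 1 to 5, at 0.920, 1.21, 1.20, 0.986 and 0.858 CPM in model 1 to 5, and at 1.09, 1.80, 1.70, 1.01 and 1.34 CPM in control 1 to 5. The SJQYD values were above all others and, by CPM, close together, with a coefficient of variation of 9.23%. By FPKM they were more scattered, from 0.366 to 0.689 FPKM. In the fit to all libraries the log2 fold change was 1.63 ± 0.22 for SJQYD against model, 1.20 ± 0.21 for SJQYD against control and -0.42 ± 0.21 for model against control (adjusted p = 0.258).

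Per transcript length, on the FPKM scale, the 3 family members together reached 74.0 to 114 FPKM in SJQYD glands, 1.74 to 8.37 FPKM in model glands and 0.233 to 4.07 FPKM in control glands. Their proportions differed too, and these do not depend on how libraries are scaled. Dbp made up 62.5% to 79.1% of the summed FPKM in SJQYD, 19.3% to 58.0% in model and 7.25% to 47.8% in control glands. Tef was the larger component in 8 of the 10 untreated libraries and in none of the SJQYD libraries. In control 1, where Tef was lowest, Hlf held 35.9% of the sum. Within the SJQYD group the share of Dbp was lowest in SJQYD 1, where Tef held 36.9%, and highest in SJQYD 4, where Tef held 20.4%. The order of Dbp itself among the SJQYD libraries depended on the scale, since SJQYD 1 was the lowest by CPM and, at 71.4 FPKM, the highest by FPKM.

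**Figure D2:**
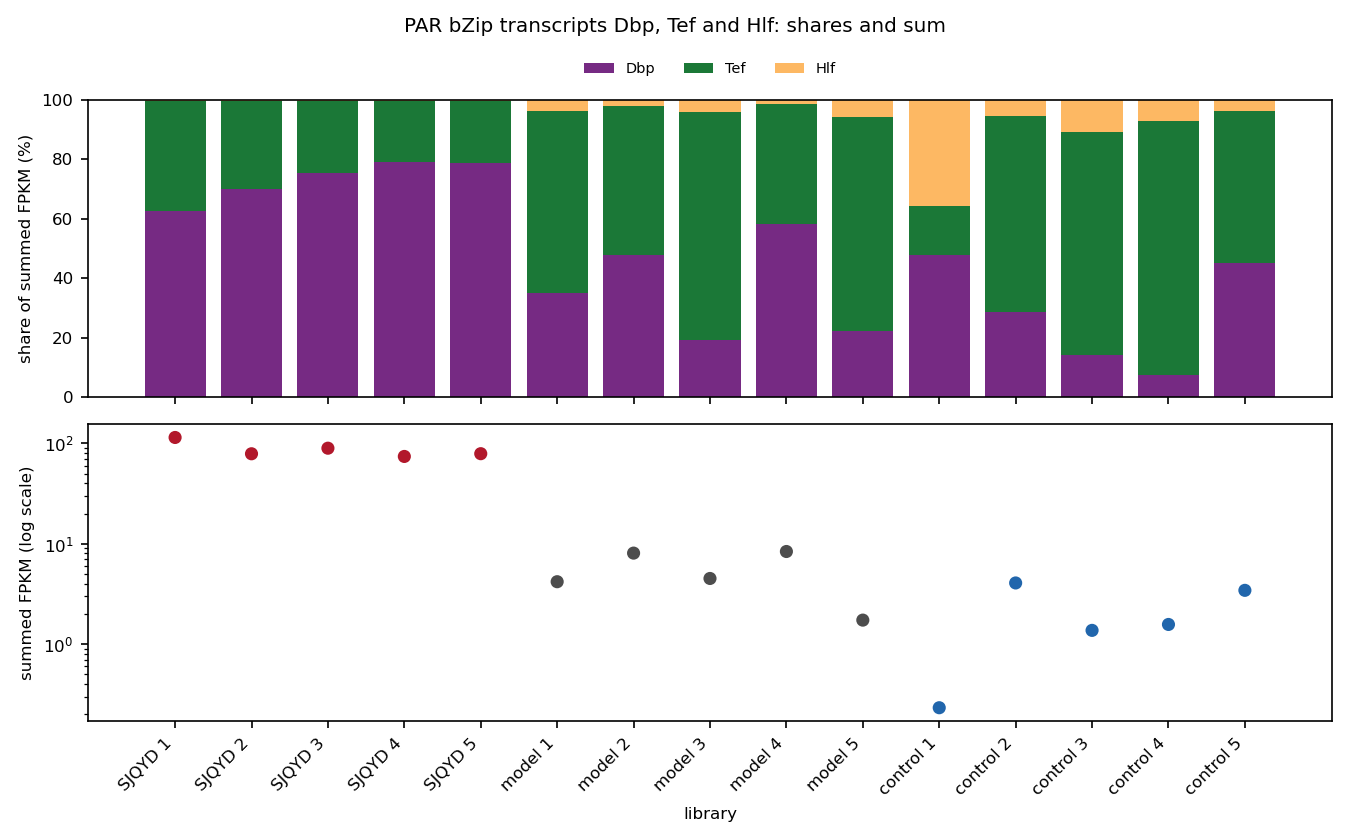
Shares of the summed FPKM of Dbp, Tef and Hlf (top, %) and the sum itself (bottom, FPKM, log scale) in each of the 15 libraries. Dbp takes the largest share in every SJQYD library, where the sum is at least 74.0 FPKM, and the sum is at most 8.37 FPKM in the untreated libraries.

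Stretches around matched letters are shown for the start sites of these genes because E-box, D-box and related letters are the sequences through which the clock is known to act. Promoters are from RefSeq on build GRCm38.p6, and each window was searched on both strands from 250 bases before to 50 bases after the start. Of the 10 genes, 8 had a promoter in that table, Tef having a pair, while Wee1 and Tmem82 had none there. The letters searched were CACGTG (E-box, in 7.15% of 32851 promoters), CACGTT (E-prime box, 4.68%) and TTATGTAA, TTACGTAA or TTATGCAA (D-box, 1.78%). Also searched were TGACGTCA (cyclic AMP element, 1.79%) and AGGTCA (part of the ROR element, 16.3%). None of the letters searched overlaps another in the windows below, where capitals mark the matched letters. The windows of Dbp and Usp2 held none of them, which says only that the letters are not in those windows. The 250 bases searched before the Usp2 start (chr9:44084670-44084919) lie inside the gene as annotated in the deposited data, which begins at 44067021. The region around that beginning was not searched. Below, the label ROR element marks a match to AGGTCA alone. The letters beside AGGTCA were not part of the search, so a whole ROR element was not tested for.
Tef, first start, E-box at -127, chr15:81802516-81802581, plus strand: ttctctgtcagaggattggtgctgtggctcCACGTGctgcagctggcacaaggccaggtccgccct
Tef, second start, E-box at -138, chr15:81811246-81811311, plus strand: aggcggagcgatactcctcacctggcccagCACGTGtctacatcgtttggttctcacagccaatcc
Hlf, cyclic AMP element at -9, chr11:90390918-90390956, minus strand: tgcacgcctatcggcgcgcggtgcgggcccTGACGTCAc
Coq10b, E-box at -78, chr1:55052662-55052727, plus strand: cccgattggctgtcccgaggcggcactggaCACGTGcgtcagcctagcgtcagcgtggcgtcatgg
Coq10b, D-box read on the other strand at -162, chr1:55052578-55052645, plus strand: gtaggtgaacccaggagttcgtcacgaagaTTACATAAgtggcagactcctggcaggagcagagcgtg
Slc25a34, ROR element read on the other strand at -119, chr4:141623918-141623983, minus strand: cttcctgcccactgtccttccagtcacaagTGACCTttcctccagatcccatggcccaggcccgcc
Leo1, ROR element at -62, chr9:75441432-75441497, plus strand: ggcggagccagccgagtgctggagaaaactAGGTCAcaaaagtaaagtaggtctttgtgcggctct

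Of the 8 genes with a promoter, E-box letters were found in 2 (Tef and Coq10b) and D-box letters in 1 (Coq10b), so Coq10b alone held both. Mir22hg carried CACGTT from 24 bases after its start. These matches describe the sequence and are not evidence of binding.

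Usp2 encodes a deubiquitinase whose known substrates include clock proteins, MDM2 and cyclin D1. It stood at 50.0, 47.7, 34.1, 27.4 and 40.0 CPM in SJQYD 1 to 5, at 4.13, 6.31, 4.22, 8.27 and 3.56 CPM in model 1 to 5, and at 5.29, 4.93, 4.85, 4.66 and 4.98 CPM in control 1 to 5. SJQYD and untreated libraries were separated by a 3.31-fold gap. By CPM the control libraries lay within a coefficient of variation of 4.65%, against 23.5% in SJQYD and 37.0% in model glands. On that scale Usp2 was nearly level across control libraries in which Dbp varied widely. By FPKM Usp2 was less even, from 0.566 to 0.881 FPKM in the control libraries. Its log2 fold change was 2.91 ± 0.22 for SJQYD against model, or 7.51-fold, 3.01 ± 0.22 for SJQYD against control and 0.10 ± 0.21 for model against control (adjusted p = 0.826). The last of these turned to -0.12 without model 4, the model library with the most Usp2.

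Coq10b encodes a coenzyme Q binding protein of the mitochondrial respiratory chain. It stood at 11.7, 12.2, 12.4, 8.82 and 13.7 CPM in SJQYD 1 to 5, at 3.57, 3.14, 2.75, 2.56 and 3.14 CPM in model 1 to 5, and at 5.68, 5.58, 3.70, 4.86 and 5.43 CPM in control 1 to 5. No groups overlapped, with SJQYD highest and model lowest. The log2 fold change was 1.95 ± 0.16 for SJQYD against model, 1.22 ± 0.15 for SJQYD against control and -0.74 ± 0.15 for model against control. The last made Coq10b the single gene of the 10 called in model against control glands (adjusted p = 0.0132). That call was lost on the log2(FPKM + 1) scale, where the log2 fold change was -0.10 (adjusted p = 0.615, limma).

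Wee1 encodes the kinase that holds CDK1 inactive until mitosis. It stood at 2.90, 2.78, 2.11, 1.55 and 3.20 CPM in SJQYD 1 to 5, at 0.575, 1.47, 1.10, 1.48 and 0.495 CPM in model 1 to 5, and at 1.87, 2.88, 1.80, 1.56 and 2.39 CPM in control 1 to 5. SJQYD and control libraries overlapped, and all model libraries lay below both by CPM, though by little, since model 4 and SJQYD 4 stood side by side. By FPKM model glands (0.115 to 0.414 FPKM) overlapped both SJQYD (0.343 to 1.33 FPKM) and control glands (0.279 to 0.727 FPKM). On the log2 scale the fitted difference was 1.29 ± 0.32 for SJQYD against model, 0.26 ± 0.32 for SJQYD against control and -1.03 ± 0.32 for model against control (adjusted p = 0.0736). Wee1 and Coq10b were the 2 genes of the 10 with no overlap between model and control libraries by CPM, which 5.77% of tested genes showed. The model against control difference of Wee1 passed the threshold without model 4 (-1.20, adjusted p = 0.0446) and with DESeq2 (-1.04, adjusted p = 0.0265).

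Mir22hg (chromosome 11, 75461539 to 75466676, plus strand) is the noncoding host transcript from which the microRNA miR-22 is cut. The mature products are shown because they identify what the locus yields, with the seed, bases 2 to 8, in capitals and the letters as RefSeq gives them. The 2 products do not share a seed. Polyadenylated RNA was sequenced, so the microRNA itself was not measured.
mmu-miR-22-5p, chr11:75463734-75463755, plus strand: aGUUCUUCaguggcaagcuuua
mmu-miR-22-3p, chr11:75463772-75463793, plus strand: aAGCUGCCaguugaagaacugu

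Mir22hg stood at 12.8, 7.35, 10.7, 6.49 and 7.30 CPM in SJQYD 1 to 5, at 4.0, 2.44, 2.29, 2.48 and 2.21 CPM in model 1 to 5, and at 3.67, 3.76, 3.47, 5.20 and 3.89 CPM in control 1 to 5. The SJQYD libraries lay above all others by a small gap of 1.25-fold, between SJQYD 4 and control 4. The log2 fold change was 1.74 ± 0.22 for SJQYD against model, 1.16 ± 0.22 for SJQYD against control and -0.58 ± 0.22 for model against control (adjusted p = 0.128). The protein-coding gene Tlcd2 overlaps Mir22hg on the same strand over 4962 bases, so reads there may not be told apart. Tlcd2 averaged 1.26 ± 0.793 CPM in SJQYD, 0.822 ± 0.442 CPM in model and 0.535 ± 0.170 CPM in control glands (SD, n = 5 each).

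The 3 genes that were lower in SJQYD glands included a pair of neighbours. Slc25a34, a member of the mitochondrial carrier family, and Tmem82, which encodes a membrane protein, lie 191 bases apart on the minus strand of chromosome 4. Slc25a34 stood at 8.24, 9.97, 10.9, 16.7 and 12.1 CPM in SJQYD 1 to 5, at 25.5, 49.7, 57.1, 42.1 and 45.4 CPM in model 1 to 5, and at 32.9, 29.3, 48.8, 35.1 and 35.2 CPM in control 1 to 5. Its log2 fold change was -1.93 ± 0.22 for SJQYD against model, -1.65 ± 0.21 for SJQYD against control and 0.28 ± 0.21 for model against control (adjusted p = 0.468).

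Tmem82 stood at 14.7, 8.76, 5.59, 10.7 and 9.35 CPM in SJQYD 1 to 5, at 19.9, 37.9, 39.7, 20.8 and 43.2 CPM in model 1 to 5, and at 22.8, 26.1, 33.6, 24.6 and 15.7 CPM in control 1 to 5. By CPM both neighbours were lowest in the SJQYD libraries without overlap, by 1.53-fold for Slc25a34 and by no more than 1.06-fold for Tmem82. On the FPKM scale Tmem82 did overlap, with 1.38 to 5.79 FPKM in SJQYD, 4.21 to 10.2 FPKM in model and 2.62 to 5.67 FPKM in control glands. The log2 fold change of Tmem82 was -1.71 ± 0.28 for SJQYD against model, -1.32 ± 0.28 for SJQYD against control and 0.40 ± 0.27 for model against control (adjusted p = 0.432). Plekhm2, the next gene on the same strand, 1913 bases from Slc25a34, averaged 11.1 ± 1.71 CPM in SJQYD, 13.8 ± 1.75 CPM in model and 10.5 ± 0.805 CPM in control glands. Its log2 fold change of -0.31 ± 0.12 for SJQYD against model did not pass the test (adjusted p = 0.215).

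Leo1 encodes a subunit of the PAF1 complex, which travels with RNA polymerase II. It stood at 2.60, 2.60, 2.79, 3.08 and 2.69 CPM in SJQYD 1 to 5, at 6.38, 8.18, 6.70, 5.65 and 7.57 CPM in model 1 to 5, and at 9.23, 6.05, 9.51, 6.66 and 8.91 CPM in control 1 to 5. By CPM the SJQYD values were the tightest of any of the 10 genes in that group, with a coefficient of variation of 7.16%. They lay 1.84-fold or more below every untreated value on that scale. By FPKM they were not the tightest, with 0.569 ± 0.158 FPKM for Leo1 and 62.9 ± 6.58 FPKM for Dbp in SJQYD glands (SD, n = 5 each). The log2 fold change was -1.32 ± 0.15 for SJQYD against model, -1.55 ± 0.16 for SJQYD against control and -0.23 ± 0.15 for model against control (adjusted p = 0.412). The sign of the last is not settled, since it was 0.15 on the log2(FPKM + 1) scale.

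**Figure D3:**
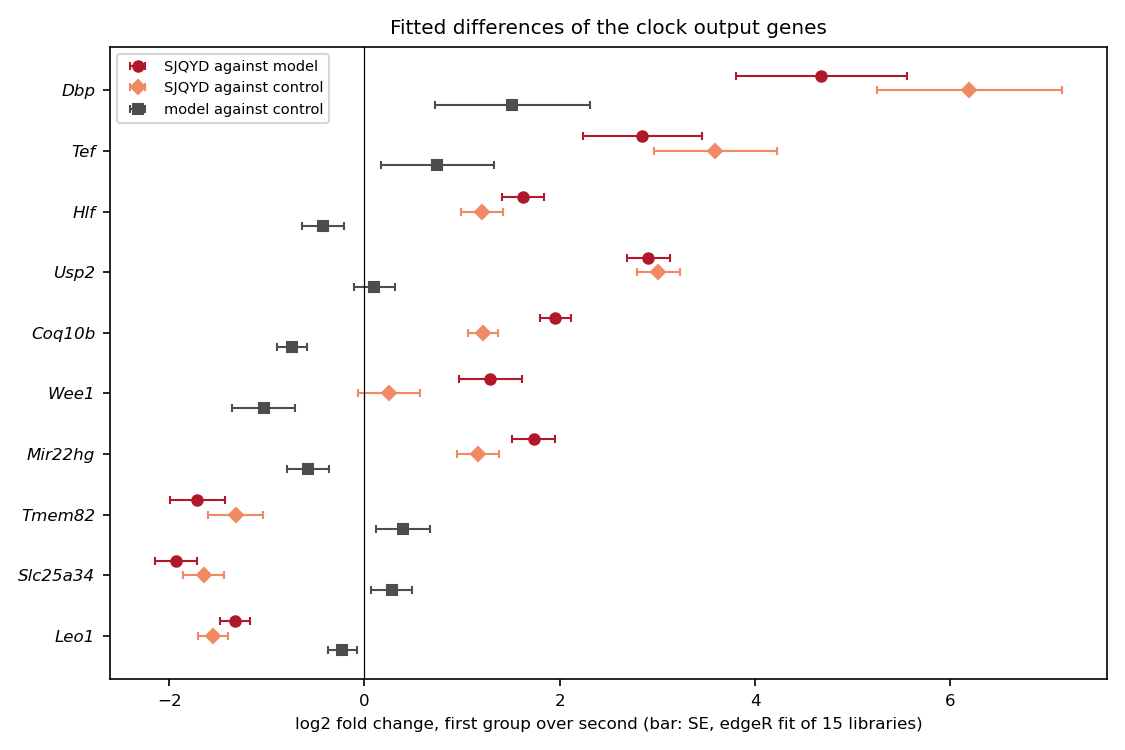
Fitted log2 fold changes of the 10 genes with standard errors, from 1 edgeR fit to all 15 libraries. The comparisons share groups. SJQYD against model and SJQYD against control lie on the same side of 0 for each gene, Wee1 against control lies at 0.26 ± 0.32, and Dbp has the widest error bars.

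Over the 10 genes the median log2 fold change was 1.68 for SJQYD against model, 1.18 for SJQYD against control and -0.06 for model against control. Over all tested genes it was -0.03, 0.04 and 0.03 for the same comparisons. The 10 genes were chosen by their difference between SJQYD and model glands, as far as can be told. Their medians follow from that choice and from its mix of 7 higher and 3 lower genes, so nothing is read from the difference from all genes. Leaving out SJQYD 1, SJQYD 3, model 3 and control 2 gave a log2 fold change of 4.57 for Dbp, 2.80 for Tef and 1.31 for Wee1 in SJQYD against model, near the full values. With the fewer libraries, 7 of the 10 genes and 119 of all tested genes passed the threshold there, and nothing is read from the count of the 10. For SJQYD against control 8 of the 10 passed without these libraries, and Mir22hg was the one lost (0.78, adjusted p = 0.0539, edgeR).

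The order of the genes by level, on the FPKM scale, differed between treated and untreated glands. In SJQYD glands Dbp came first with 62.9 ± 6.58 FPKM, then Tef with 23.6 ± 10.9 FPKM and Usp2 with 8.78 ± 4.60 FPKM (SD, n = 5 each). Mir22hg (5.06 ± 3.22 FPKM), Slc25a34 (4.18 ± 0.598 FPKM), Tmem82 (2.64 ± 1.78 FPKM) and Coq10b (2.50 ± 0.864 FPKM) followed with overlapping spreads, and Wee1, Leo1 and Hlf were all under 1.33 FPKM in every SJQYD library. In model glands Slc25a34 led with 15.4 ± 4.47 FPKM, ahead of Tmem82 with 7.58 ± 2.54 FPKM, while Tef (2.94 ± 1.08 FPKM) and Dbp (2.29 ± 1.96 FPKM) were within each other's spread. In control glands Slc25a34 again led with 9.14 ± 1.77 FPKM and Tmem82 followed with 4.20 ± 1.35 FPKM. Dbp, with 0.625 ± 0.680 FPKM, came eighth of the 10 there, and could not be told from Usp2 (0.695 ± 0.122 FPKM) or Coq10b (0.717 ± 0.200 FPKM).

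Each library's value was then set against its Arntl and Per2. Over the 10 untreated libraries, Dbp ran opposite to Arntl on the log2 CPM scale, with Pearson's r = -0.96 (permutation p = 1e-05, the smallest that 100000 resamples can give, adjusted p = 0.00016 over 16 relations) and Spearman's rho = -0.95 (permutation p = 8e-05, adjusted p = 0.00128). Without control 1 and model 4, the libraries farthest from the median of Arntl, r was again -0.96. It was -0.98 without control 2 and model 3, the untreated libraries richest in parotid transcripts, a check added after the data were seen, and -0.85 on the log2(FPKM + 0.1) scale. Within the model group, the libraries ordered from most to least Dbp (4, 2, 1, 3, 5) were exactly those ordered from least to most Arntl. In the control group the order from most Dbp was 5, 2, 3, 1, 4 and that from least Arntl was 5, 2, 3, 4, 1. Groups of 5 are too few for a correlation of their own, so the relation within each strain has no test.

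Tef also ran opposite to Arntl, with r = -0.73 (permutation p = 0.00846, adjusted p = 0.0677) and rho = -0.85 (permutation p = 0.00283, adjusted p = 0.0226). It passed the adjusted threshold by rank only, and r was -0.81 without control 1 and model 4. Usp2 gave r = -0.58 with Arntl (permutation p = 0.077, adjusted p = 0.265) and Hlf gave r = 0.08 (permutation p = 0.831, adjusted p = 0.95). No relation to Per2 passed. Dbp gave r = 0.03 with Per2 (permutation p = 0.947), and the largest value, for Mir22hg, was r = 0.64 (permutation p = 0.0412, adjusted p = 0.22). In all, 16 relations of 8 genes were computed, of which 1 passed by Pearson's r and 2 by Spearman's rho. Wee1 and Coq10b were left out because their model and control libraries do not overlap by CPM, though for Wee1 the gap is small. No r with Arntl or Per2 over all 15 libraries is given, since the SJQYD libraries stand apart.

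Inside the SJQYD group the pattern was not the same by eye on the CPM scale, though this depended on how libraries were scaled. On the CPM scale Dbp and Arntl were both lowest in SJQYD 1, while Tef, from most to least, ordered the libraries 1, 2, 3, 5, 4 and Per2 ordered them 2, 1, 3, 5, 4. Usp2 and Per2 were both lowest in SJQYD 4. These orders have no test.

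**Figure D4:**
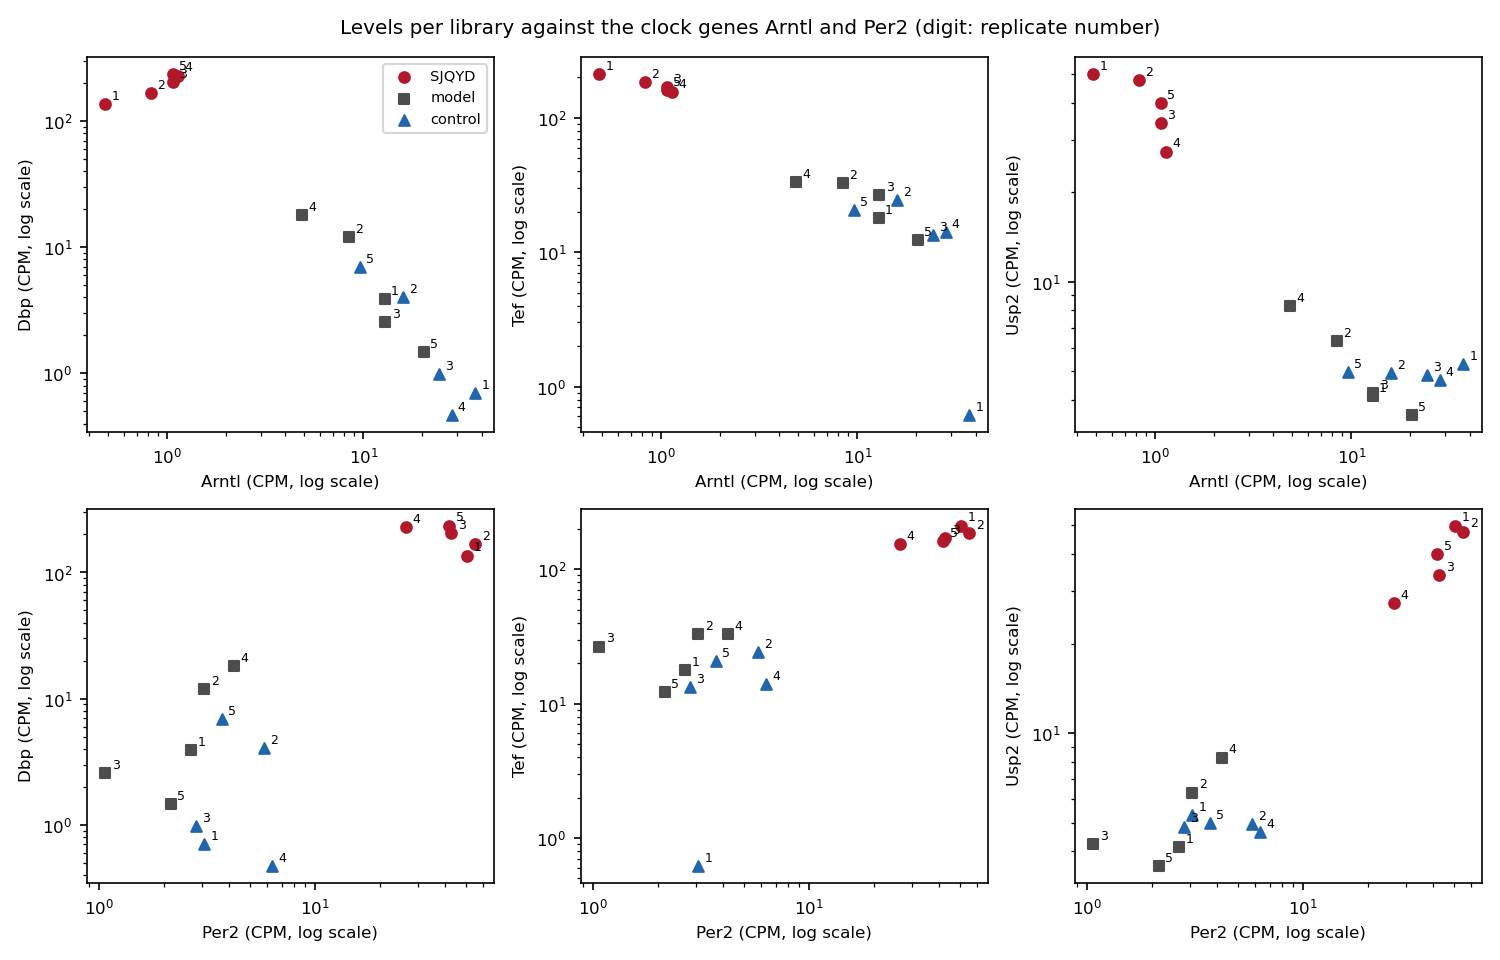
Dbp, Tef and Usp2 (CPM, log scale) against Arntl (top) and Per2 (bottom) in each library, with digits for replicate numbers. Among untreated libraries Dbp is lower where Arntl is higher, with the most Dbp in model 4 (18.0 CPM) and the least in control 4 (0.469 CPM), and the SJQYD libraries form a separate cluster with Arntl of at most 1.13 CPM.

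The genes most like Dbp over all 15 libraries were ranked by Pearson's r of log2 CPM among 11851 genes. The groups stand apart, so these r values describe mostly the contrast of SJQYD with the other groups and carry no test. The highest were Per3 (0.98), Nr1d2 (0.97), Ciart (0.96), Bhlhe41 (0.93), Cry2 (0.92), Atf6b (0.91), Acap3 (0.90) and Bop1 (0.90). The first 5 encode repressors of the clock loop. Per3 averaged 54.8 ± 12.5 CPM in SJQYD, 5.34 ± 2.35 CPM in model and 4.14 ± 2.39 CPM in control glands. The lowest were Arntl (-0.97), Npas2 (-0.95), Lnx2 (-0.94) and Clock (-0.93), of which Npas2 and Clock encode partners of BMAL1. Npas2 averaged 0.677 ± 0.256 CPM in SJQYD, 5.47 ± 2.32 CPM in model and 7.98 ± 2.85 CPM in control glands. Among the 10 genes themselves, Usp2 (0.92), Tef (0.88) and Hlf (0.84) were closest to Dbp in this measure, Leo1 (-0.90) was its closest opposite and Wee1 (0.47) was the least related.

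Other genes of the clock loop, 20 of them tested, moved in both directions. In SJQYD against model glands 7 rose and 3 fell, where 2.75% of all tested genes were called, with a median log2 fold change of 0.28. Those with the smallest p were Per2 and Arntl, given above, the repressor Cry2 (1.58 ± 0.17, adjusted p = 0.00011) and Npas2 (-3.01 ± 0.35, adjusted p = 0.00025). In SJQYD against control glands 8 rose and 6 fell, where 11.1% of all tested genes were called, with a median of 0.38. In model against control glands 3 fell, where 5.07% of all tested genes were called. They were Cry1, a repressor (-1.03 ± 0.26, adjusted p = 0.030), Nfil3, which competes with PAR bZip proteins for D-boxes (-0.95 ± 0.23, adjusted p = 0.028), and Rora, an activator of Arntl (-0.56 ± 0.14, adjusted p = 0.029). Neither Arntl (-0.95 ± 0.39, adjusted p = 0.167) nor Per2 (-0.72 ± 0.32, adjusted p = 0.21) passed there.

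Other genes known as clock outputs in many mouse tissues, 14 tested, were called in part. In SJQYD against model glands 4 rose and 1 fell, against the same 2.75% of all tested genes, with a median log2 fold change of 0.19. Noct, which encodes nocturnin, a protein of the deadenylase family, rose by 1.50 ± 0.24 (adjusted p = 0.0035) and averaged 42.4 ± 11.1 CPM in SJQYD, 15.0 ± 3.91 CPM in model and 18.1 ± 6.68 CPM in control glands. Tspan4, a tetraspanin, rose by 1.31 ± 0.17 (adjusted p = 0.00055), Cys1, the cilium protein cystin, by 1.24 ± 0.31 (adjusted p = 0.039) and Herpud1, a protein of the endoplasmic reticulum stress response, by 1.03 ± 0.24 (adjusted p = 0.026). Pdk4, a kinase that restrains pyruvate oxidation, fell by 1.60 ± 0.37 on the log2 scale (adjusted p = 0.031). In SJQYD against control glands 5 rose and 1 fell, where 11.1% of all tested genes were called, with a median of 0.03. The 5 were Noct, Tspan4, Cys1, Herpud1 and the glucocorticoid-induced gene Tsc22d3 (1.31 ± 0.23, adjusted p = 0.0028), and the one that fell was Insig2, a regulator of sterol synthesis (-0.42 ± 0.13, adjusted p = 0.049). In model against control glands edgeR and DESeq2 called 0 of the 14, and 6 had an unadjusted p under 0.05.

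Of 10 genes known in mouse liver or brain as targets of the PAR bZip factors, 8 were tested, and Cyp7a1 and Cyp2a4 did not pass the filter. In SJQYD against model glands 2 of the 8 rose, Alas1 and Cyp2a5, where 2.75% of all tested genes were called. Alas1, the first and rate-limiting enzyme of haem synthesis, averaged 29.3 ± 6.32 CPM in SJQYD, 14.9 ± 2.07 CPM in model and 15.2 ± 2.38 CPM in control glands. It rose by 0.97 ± 0.15 on the log2 scale in SJQYD against model glands (adjusted p = 0.0023). Cyp2a5, a cytochrome of drug metabolism, averaged 3.74 ± 1.95 CPM in SJQYD, 1.09 ± 0.466 CPM in model and 0.721 ± 0.307 CPM in control glands, and rose by 1.78 ± 0.41 (adjusted p = 0.025). Cyp2a5 and Cyp2a4 are near-identical copies, so the split of reads between them is uncertain. The median of the 8 was 0.10 for SJQYD against model. The same pair rose against control, Alas1 by 0.95 ± 0.15 (adjusted p = 0.0012) and Cyp2a5 by 2.37 ± 0.42 (adjusted p = 0.0024). In that comparison 11.1% of all tested genes were called, and the median over the 8 was 0.94. This median is imprecise, since Ddc (0.94 ± 1.24), Cyp2b10 (1.09 ± 1.05), Ppara (1.42 ± 0.87) and Nr1i3 (0.63 ± 0.68) had wide errors. Pdxk (-0.05 ± 0.18) and Por (0.34 ± 0.15) were not called either. For model against control edgeR and DESeq2 called 0 of the 8, and 0 had an unadjusted p under 0.05, with a median of 0.63.

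Over the 4 lists of partners of Wee1, Leo1, Coq10b and Usp2, 1 gene was called in SJQYD against model glands, a share near the 2.75% of all tested genes, so the count says nothing particular about these lists. Of 10 genes of the CDK1 switch, Chek1, a kinase of the DNA damage checkpoint, rose in SJQYD against model glands (1.32 ± 0.28, adjusted p = 0.018), and no other did, with a median of -0.04 over the 10. Of the other PAF1 complex subunits, 5 were tested and edgeR and DESeq2 called 0 in SJQYD against model, with 0 at an unadjusted p under 0.05 and a median of -0.12. Against control glands, where 11.1% of all tested genes were called, Cdc73 (-0.47 ± 0.12, adjusted p = 0.018) and Wdr61 (-0.71 ± 0.21, adjusted p = 0.039) were lower in SJQYD glands. Of 12 genes of coenzyme Q synthesis and binding, edgeR and DESeq2 called 0 in SJQYD against model, with 2 at an unadjusted p under 0.05 and a median of 0.02. Coq6 alone was called by edgeR against control, higher in SJQYD glands (0.46 ± 0.13, adjusted p = 0.034). Of 7 relatives and substrates of Usp2, edgeR and DESeq2 called 0 in SJQYD against model, with 1 at an unadjusted p under 0.05 and a median of 0.05. Mdm2 was higher in SJQYD than in control glands (0.51 ± 0.15, adjusted p = 0.041). In SJQYD against control glands edgeR thus called 0 of 10, 2 of 5, 1 of 12 and 1 of 7 genes of the 4 lists. With 11.1% of all tested genes called there, nothing particular about the lists is read from these counts. In the remaining comparisons of these 4 lists neither tool called a gene.

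**Figure D5:**
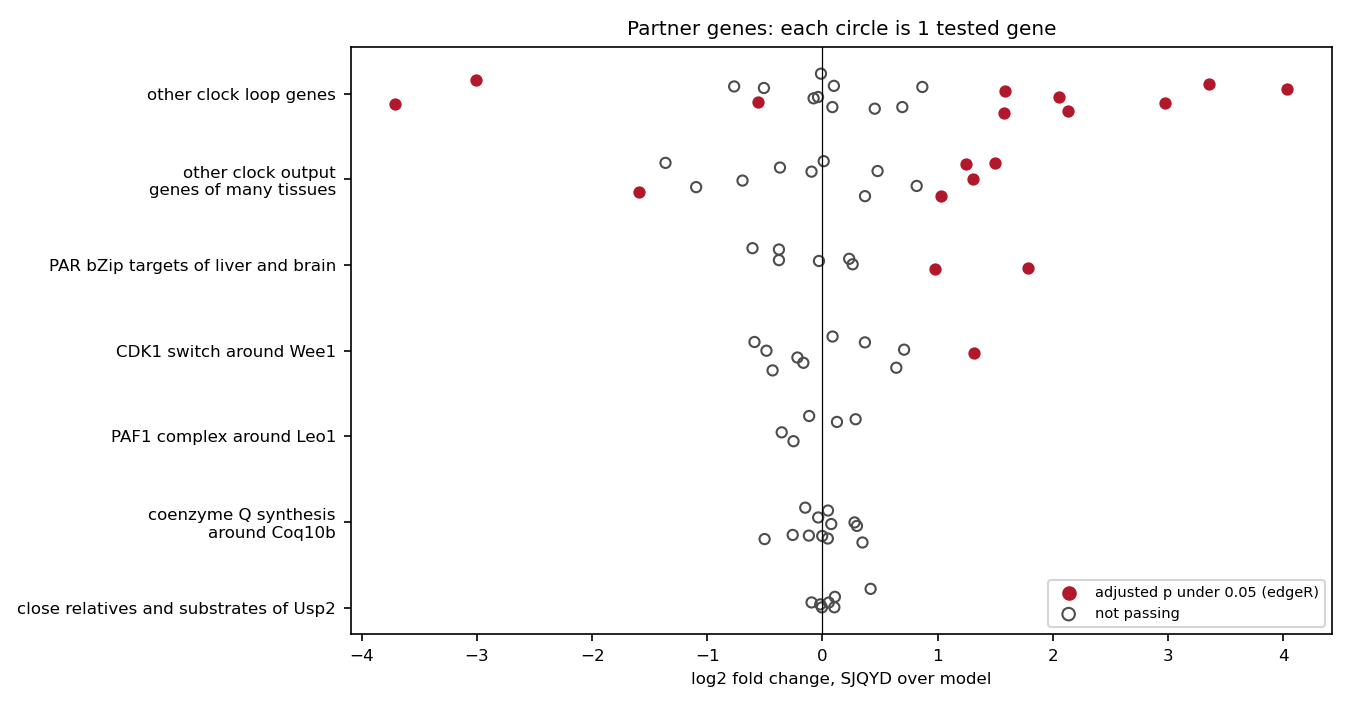
Log2 fold changes of partner genes in SJQYD against model glands, 1 circle per tested gene, filled where the edgeR adjusted p was under 0.05. Clock loop genes reach from -3.71 (Arntl) to 4.04 (Per2), while 1 of 10 CDK1 switch genes and none of the PAF1, coenzyme Q or Usp2 partner genes are filled.

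Genes next to or overlapping the 10 could share reads with them if strand was ignored in counting, which the sources used here do not state. The libraries were made to keep strand, per the labels. Dbp (chromosome 7, 45705088 to 45710203, plus strand) overlaps Sphk2 on the other strand over 737 bases. Sphk2 averaged 23.1 ± 3.74 CPM in SJQYD, 20.4 ± 4.06 CPM in model and 18.6 ± 2.49 CPM in control glands, and its log2 fold change of 0.18 ± 0.15 for SJQYD against model did not pass the test (adjusted p = 0.611). Car11, 406 bases from Dbp, gave 0.64 ± 0.38 (adjusted p = 0.438). Rnf26, which ends 4 bases from Usp2 (chromosome 9, 44067021 to 44095627, plus strand), gave 0.01 ± 0.23 (adjusted p = 0.989). Gm49380, annotated across the whole of Usp2 on the other strand, averaged 0.298 ± 0.382 CPM in SJQYD, 0.520 ± 0.682 CPM in model and 0.256 ± 0.418 CPM in control glands. Gm17971, a processed pseudogene inside Coq10b on the same strand, averaged 0.307 ± 0.250 CPM in SJQYD, 0.0567 ± 0.0759 CPM in model and 0.111 ± 0.0952 CPM in control glands. Gm7972, 2184 bases from Leo1 (chromosome 9, 75441524 to 75466432, plus strand), averaged 0.176 ± 0.180 CPM in SJQYD and 0.234 ± 0.0543 CPM in model glands.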

How the data were processed

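The authors deposited whole-number gene counts for 55401 genes and a table of FPKM, normalised per gene length and library size. The submitters' processing notes name the tools HISAT2 2.0.4, StringTie 1.3.4d, cutadapt 1.9, UMI-tools, edgeR and DESeq2 with no role for any. They also name mm9. Coordinates deposited with the FPKM values equal those of GRCm38 for all 10 genes and for 87.5% of 32385 genes compared, and are given as GRCm38. Counts were filtered by expression in groups, scaled by TMM and fitted with edgeR 4.0.16 (R 4.3.3) by quasi-likelihood over all 15 libraries, with Benjamini-Hochberg adjustment. CPM values are TMM-adjusted. Correlations used log2(CPM + 0.1) and two-sided permutation tests. The fit was tested on simulated data. The genes and partner lists were chosen with earlier results of these data known. The text names all 10 genes, called partners (the 4 with the smallest p where over 6 were called), tested neighbours within 5000 bases and the genes most like Dbp. The labels do not say how the mice relate, so p-values measure the spread between these samples. Alternatives were other normalizations and filters, DESeq2 1.42.0, limma 3.58.1 on log2(FPKM + 1) and log2(FPKM + 0.1), a replicate block and leaving libraries out.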

Additional observations from a re-analysis of the deposited data

Results flagged for a closer look

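In a scan of 36 sets of 5 libraries (12 genes in 3 groups), 2 had 1 library far from the rest by Dixon's criterion, and chance flags about 1 in 20 such sets. Both concern Mir22hg. In model 1 Mir22hg stood at 4.0 CPM, against 2.21 to 2.48 CPM in the other model libraries. In control 4 it stood at 5.20 CPM, against 3.47 to 3.89 CPM in the other control libraries.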

How the results depend on the processing

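For SJQYD against model, 498 genes were called. The count was 119 without SJQYD 1, SJQYD 3, model 3 and control 2, 1072 with DESeq2, 68 with limma on log2(FPKM + 1), 57 on log2(FPKM + 0.1) and 48 on log2(FPKM + 1) with no filter. Leaving out 1 library at a time gave 333 to 527 genes and 8 to 10 of the 10 members. Since this contrast appears to have chosen the members, their calls kept or lost in it are a description and carry no test. Dbp lost its call without the 4 libraries (4.57, edgeR), and Tef and Wee1 lost theirs under several settings, with their direction kept in each. On log2(FPKM + 1) with no filter, Mir22hg (1.26, limma) and Tmem82 (-1.29) lost theirs too.

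For SJQYD against control, 2017 genes were called, against 3626 with log2(FPKM + 1) and 4046 with log2(FPKM + 0.1), of which 3538 and 3955 were higher, where 947 were higher by counts. Leaving out 1 library gave 1240 (without control 5) to 2626 genes (without control 2), with 1298 without SJQYD 2, and 9 of the 10 members each time. Tmem82 was not called on the FPKM scales (-0.58, adjusted p = 0.107, limma, with a pseudocount of 1).

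For model against control, 920 genes were called, 466 of them higher. The count was 466 with only those groups fitted, 1458 without the 4 libraries, 1779 with DESeq2, 1447 with log2(FPKM + 1), 1958 with log2(FPKM + 0.1) and 555 on log2(FPKM + 1) with no filter. Of these, 1407, 1915 and 516 were higher in the FPKM fits. Leaving out 1 library gave 354 (without model 2) to 1799 genes (without control 2) and 1 to 2 members. Except without model 4 or any SJQYD library, the count moved over 1.5-fold, to 531, 601 and 548 without model 1, 3 and 5 and to 410, 565, 543 and 590 without control 1, 3, 4 and 5. DESeq2 called 2 members (Coq10b and Wee1), and limma with no filter called 0. The FPKM + 1 scale moved the median of all genes to 0.28 for model against control and to 0.33 for SJQYD against control. Values for model against control that changed sign were Usp2 without model 4 (-0.12, with up to 0.21 when another library was left out), Leo1 with FPKM + 1 (0.15 with and without the filter) and FPKM + 0.1 (0.25), and Hlf with FPKM + 1 and no filter (0.0058). Slc25a34 passed there with FPKM + 1 (0.68, adjusted p = 0.0344, limma), as far as the shift of the median allows. The cause of these changes was not tested.

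Among correlations, 1 passed under each alternative. Those that changed sign were Dbp with Per2 (-0.057 without control 2 and model 3), Hlf with Arntl (-0.12 by FPKM, -0.034 without the 2 farthest libraries) and Leo1 with Arntl (-0.0038 by FPKM, -0.11 without the 2 farthest).

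Same-numbered libraries correlated weakly in their deviations from the group means (r from -0.23 to 0.16). Replicate 4 was nonetheless its own best match for SJQYD and model (r = 0.08), SJQYD and control (0.16) and model and control (0.13). Whether the numbers pair samples cannot be told from these values. A replicate block gave 401 genes and 8 members for SJQYD against model, 1799 and 9 for SJQYD against control, and 896 and 1 for model against control.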
